A study of Mus musculus with 7 samples.

Results

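The nuclear-encoded subunits of respiratory complexes II to V, with cytochrome c, were examined in RNA-seq libraries of mouse intestinal epithelium. The members were the protein-coding genes of the table whose symbols begin with Uqcr, Cox4 to Cox8 or Atp5, or are Sdha, Sdhb, Sdhc, Sdhd, Cyc1 or Cycs. Of 46671 genes, 49 met this rule, namely 4 of complex II, 10 of complex III with cytochrome c, 18 of complex IV and 17 of complex V. A further 6 genes matched by name and were left out because the table marks them as pseudogenes. The study compared 3 wild-type libraries (Ctrl) with 4 libraries from a knockout of MST3, a kinase whose gene is Stk24, in the epithelial cells of the intestine (cKO). All mice were BALB/C animals of 8 weeks by the labels, the tissue label is colorectum, and what drives the knockout is not given in the sources used here. Both groups carry a treatment label that states that no drug was given, whereas the design text names AOM and DSS, a carcinogen and an agent that causes colitis. Whether the libraries stem from different mice is not labelled, and the p-values therefore cover the variation among these 7 libraries, which may be technical.

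The respiratory chain of the inner mitochondrial membrane passes electrons from succinate, through complex II, and from NADH, through complex I, to ubiquinone. Complex III passes them on to cytochrome c and complex IV to oxygen, and complex V, the ATP synthase, uses the resulting proton gradient to make ATP. Complex II is encoded wholly in the nucleus, whereas complexes III, IV and V join nuclear subunits to a few that are encoded in mitochondrial DNA. Absorptive cells of the intestinal epithelium rely on this system for nutrient transport.

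Depth ranged from 14659708 to 19659622 reads per library. FPKM is the number of reads per kilobase of gene, scaled by library size. Stk24 had a level of 19.9 ± 0.926 FPKM in the 3 Ctrl libraries and of 3.34 ± 0.435 FPKM in the 4 cKO libraries (SD), which matched the labels. Despite the tissue label, the colonocyte markers Car1 and Aqp8 were at most 0.0705 and 1.56 FPKM, and Slc26a3 and Ceacam20 were 24.2 to 57.9 and 17.4 to 43.7 FPKM, whereas the summed level of 5 enterocyte markers was 14463 to 18473 FPKM in Ctrl and 9876 to 18568 in cKO. Of these 5, 4 were lower in cKO and 1, Sis, higher (log2 difference 0.30, limma adjusted p = 0.736). Fabp1 stood at 2500 to 2815 FPKM in Ctrl and 819 to 1658 in cKO (-1.19, limma adjusted p = 0.473). The summed level of 5 T cell markers was 339 to 836 FPKM in Ctrl and 220.02 to 544 in cKO, and that of 3 Paneth cell markers was 6899 to 19585 and 3086 to 14449. For 3 goblet cell markers the summed level was 1643 to 2655 FPKM in Ctrl and 1516 to 2572 in cKO. For 2 enteroendocrine markers it was 74.7 to 83.9 FPKM in Ctrl and 43.0 to 93.1 in cKO, and 2 ileal markers reached at most 5.29. Among the remaining lists, the highest summed level in any library was 17.8 FPKM for erythroid cells, 7.24 for fibroblasts and 7.20 for B or plasma cells. It was 3.49 for macrophages, 1.24 for skeletal or heart muscle, 0.771 for endothelium and 0.473 for smooth muscle. The part of these cell type levels in the results on subunits was not tested. In tissue samples of this kind, fewer cells of a type and less RNA per cell cannot be told apart.

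Most subunits were among the abundant transcripts of the epithelium. Atp5b, the catalytic beta subunit of ATP synthase, had the highest mean over all libraries at 1243 FPKM. It was followed by Cox6a1 at 1237, Cox4i1 at 1050.0, Atp5a1 at 783 and Cox8a at 705 FPKM. The order of the first 2 is within their spread, since Atp5b ranged from 1148 to 1496 FPKM over libraries and Cox6a1 from 936 to 1473. A mean of at least 100 FPKM was reached by 39 of the 49 subunits. Of the subunits that are not tissue-specific forms, Atp5j stood lowest at 40.9 FPKM, followed by Cycs at 78.5 and Cox5a at 90.4 FPKM. The table assigns these 3 genes lengths of 4137, 3154 and 3153 bases, by which FPKM divides their reads. The median length of tested subunits was 772 bases. All 4 subunits of complex II stood within a narrow band of mean levels, from 202 FPKM for the flavoprotein Sdha to 302 FPKM for the iron-sulfur protein Sdhb.

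**Figure D1:**
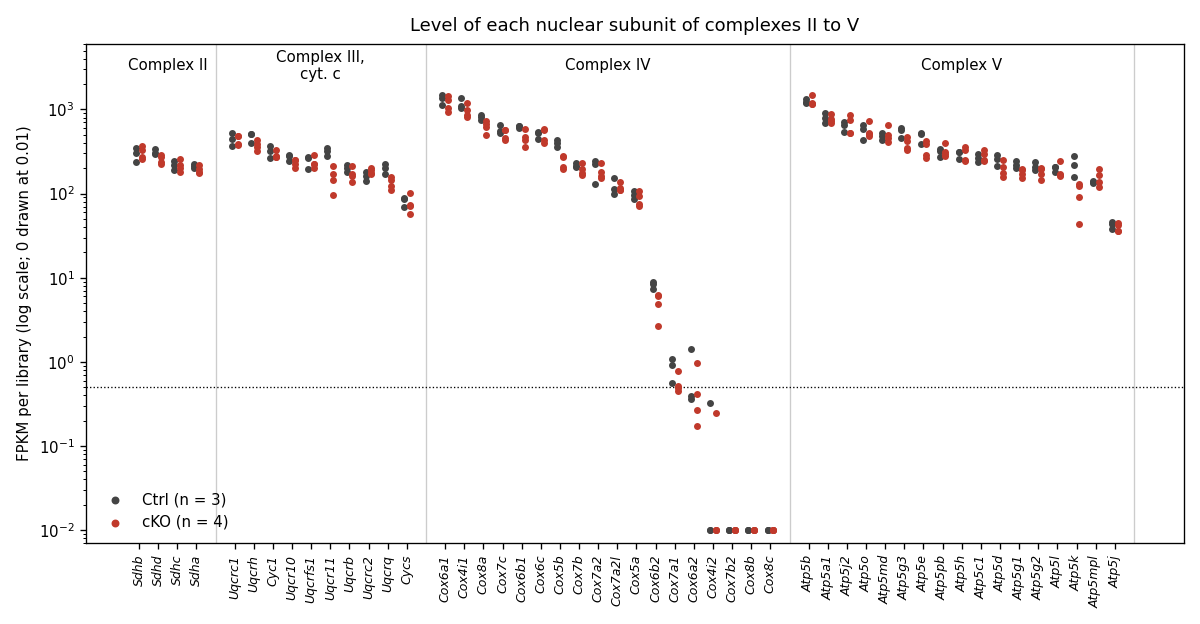
FPKM of each of the 49 subunits in every library (log axis, values of 0 drawn at 0.01), grouped by complex, with 3 Ctrl and 4 cKO points per gene. Most genes lie between 100 and 1243 FPKM, and Cox4i2, Cox6a2, Cox7a1, Cox7b2, Cox8b and Cox8c lie near or under the dotted line at 0.5 FPKM, the level required for the test, with Cox6b2 above it at 2.68 to 8.78.

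The paired isoforms of complex IV were almost wholly of the form found in most tissues. Cox4i1 made up at least 99.97% of the summed FPKM of the Cox4 genes in every library, and Cox6a1 at least 99.87% of the Cox6a genes. Cox6a2, Cox7a1 and Cox8b are known as the forms of heart and skeletal muscle, and their levels were at most 1.41, 1.07 and 0 FPKM in any library. Of the 3 muscle markers listed, Ckm and Myh7 were at most 0.0728 and 0.0155 FPKM, and Actn2 stood at 0.277 to 1.16 FPKM. Cox7a1 made up 0.142% to 0.471% of the summed Cox7a level. That level was shared by Cox7a2, at 52.9% to 66.4%, and Cox7a2l, the related gene of a supercomplex factor, at 33.4% to 46.95%. Cox6b2, known as the testis form of Cox6b, stood at 2.68 to 8.78 FPKM, or 0.748% to 1.41% of the summed Cox6b level. No read was assigned to Cox7b2, Cox8b or Cox8c in any library, and Cox4i2 received 7 reads in all. These 4 genes were below the mean of 0.5 FPKM required for the test. An exact 2-sided permutation test on Cox4i2 gave p = 0.857. With the smaller tail doubled, as here, 3 against 4 libraries allow no p under 0.0571. Cox6a2 and Cox7a1 passed that level by a small margin, at means of 0.571 and 0.682 FPKM, and 2 to 15 and 3 to 8 reads per library.

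The c subunit, which forms the rotating ring of ATP synthase, is encoded by Atp5g1, Atp5g2 and Atp5g3, which yield the same mature protein. Atp5g3 made up 49.3% to 57.1% of their summed FPKM, Atp5g1 21.5% to 29.1% and Atp5g2 20.5% to 28.6%. The shares in Ctrl and cKO overlapped for all 3 genes.

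Promoters of subunits are known for sites of NRF1, the ETS factor NRF2 (GABP), Sp1, YY1 and ERR alpha. Stretches of 120 bases that end at the base before the start site are shown for Cox5b, Uqcr11 and Atp5k, whose libraries did not overlap between the genotypes, and for Atp5b and Sdha, whose libraries did. They are printed 5′ to 3′ on the strand of the gene, from the RefSeq table of GRCm38.p6, with matches to the searched letters in capitals.
Cox5b: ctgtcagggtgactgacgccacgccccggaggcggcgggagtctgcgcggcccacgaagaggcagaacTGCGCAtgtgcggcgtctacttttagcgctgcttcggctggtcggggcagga
Uqcr11: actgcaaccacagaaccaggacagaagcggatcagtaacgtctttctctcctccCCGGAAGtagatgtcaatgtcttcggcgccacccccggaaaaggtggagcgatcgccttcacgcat
Atp5k: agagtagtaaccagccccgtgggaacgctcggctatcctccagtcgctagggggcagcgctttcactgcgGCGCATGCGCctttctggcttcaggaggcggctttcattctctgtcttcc
Atp5b: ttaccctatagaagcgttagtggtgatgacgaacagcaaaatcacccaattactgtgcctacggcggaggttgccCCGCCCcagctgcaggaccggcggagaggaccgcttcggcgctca
Sdha: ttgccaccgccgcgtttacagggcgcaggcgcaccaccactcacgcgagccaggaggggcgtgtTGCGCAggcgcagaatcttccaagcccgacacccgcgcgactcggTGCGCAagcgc
The stretches lie at chr1:36691367-36691486 (plus strand), chr10:80406822-80406941 (minus), chr5:108434400-108434519 (minus), chr10:128083187-128083306 (plus) and chr13:74350241-74350360 (minus). The capitals mark 1 NRF1 core in Cox5b and 2 in Sdha, an ETS core in Uqcr11, the NRF1 palindrome in Atp5k and an Sp1 core in Atp5b. Not every subunit held a match, and Cycs, Uqcrc1, Cox8a and Atp5g1 are among those without any in the 250 bases searched.

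The search covered 250 bases upstream of the start on both strands in 27025 genes, and 37 of the 49 subunits had an entry. The NRF1 palindrome, of 10 letters, was found in 3 subunits (Atp5g2, Atp5k and Cox6a1), or 8.11%, against 0.877% of all genes and 1.93% of 9021 other tested protein-coding genes. The shorter NRF1 core TGCGCA, which overlaps the palindrome only where a T precedes or an A follows it, was found in 7 subunits (18.9%), against 7.36% and 13.7%. The ETS core CCGGAAG was found in 9 (24.3%), against 7.83% and 16.2%. The Sp1 core GGGCGG was found in 12 (32.4%), against 35.4% and 63.7%. The YY1 core AAGATGGC was found in 1 subunit, Atp5j (2.70%, against 1.83% and 2.43%), and the ERR alpha element TCAAGGTCA in 1, Atp5g3 (2.70%, against 0.422% and 0.288%). Of the 5 subunits with an entry that were lower in cKO at an unadjusted p under 0.05 in the comparison of genotypes, 1 each held the palindrome, the NRF1 core, the ETS core, the Sp1 core and the ERR alpha element. A match of letters is a description of the sequence and not a site shown to be bound.

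The genotypes were compared with limma on log2(FPKM + 0.5) over 13057 genes, with Benjamini-Hochberg adjustment. No subunit passed the adjusted threshold of 0.05, the smallest adjusted p being 0.456 in limma, and 4 genes of the whole table did (0.0306%). At an unadjusted p under 0.05, 6 of the 45 tested subunits were lower in cKO and 0 higher, against 4.73% and 4.24% of all genes tested. Under 1000 bases, 4 of 25 tested subunits and 104 of 617 other protein-coding genes were lower at that level. Among longer genes it was 2 of 20 subunits and 410 of 10541 other protein-coding genes, of which 109 of 860 between 1000 and 1500 bases. Without cKO replicate 4 the 6 became 14, against 5.54% of all genes in that fit. With limma voom on reads recovered from the values, 0 subunits were called and 13 of 43 were lower at that level (3.63% of all genes in that fit). The log2 difference was below 0 in 37 of 45 tested subunits (82.2%) and in 51.3% of all genes. After rescaling to a common sum it was 29 subunits (64.4%) and 38.7% of all genes, and after quantile normalization 26 (57.8%) and 46.5%. The median was -0.16 over the subunits and -0.0077 over all genes. Without Cox6a2 and Cox7a1, at a required mean of 1 FPKM, 35 of 43 were below 0 (81.4%, and 51.7% of all genes in that fit). The median moved to -0.094 without Ctrl replicate 1, to -0.095 without cKO replicate 2 and to -0.26 without cKO replicate 4.

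All 4 cKO libraries stood below all 3 Ctrl libraries in 9 subunits (4.51% of all genes tested), and above them in 0 (5.62% of all genes). The 9 were Sdhd, Uqcr11, Uqcrq, Cox5b, Cox6b1, Cox6b2, Cox8a, Atp5g1 and Atp5k. After rescaling to a common sum, 6 were left (2.34% of all genes): Uqcr11, Uqcrq, Cox5b, Cox6b1, Cox8a and Atp5k. On that scale 1 subunit, Uqcrc2, had every cKO library above every Ctrl library, as did 8.65% of all genes. With FPKM per recovered read, Uqcrc2 was again the only subunit higher without overlap (5.05% of all genes). On this last scale 11 subunits were lower without overlap (4.03% of all genes).

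**Figure D2:**
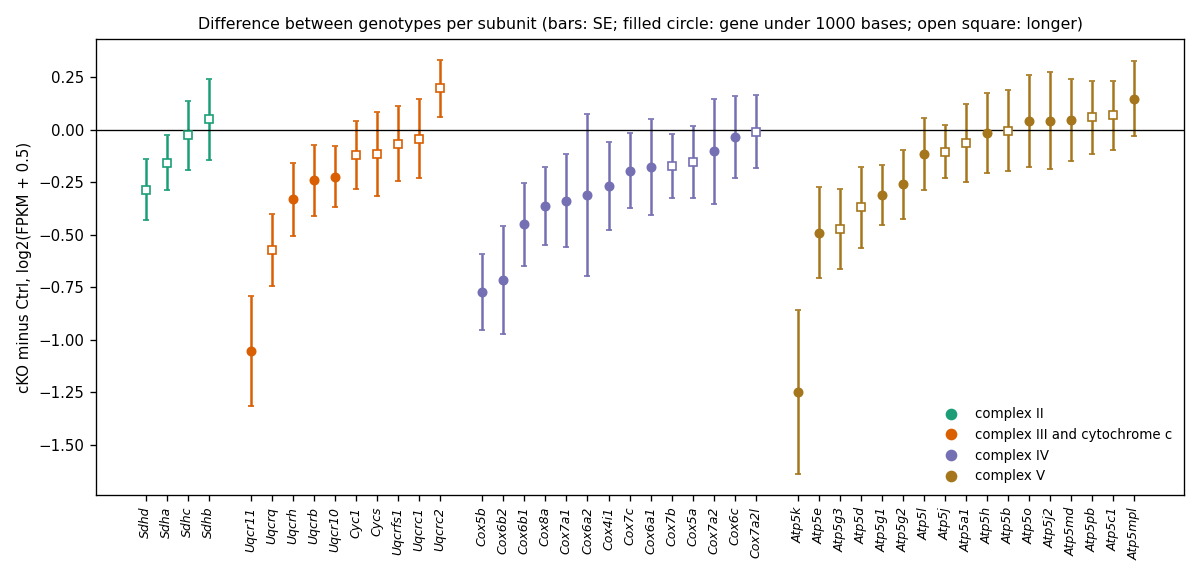
Log2 difference, cKO minus Ctrl, of the 45 tested subunits with its SE, ordered within each complex. Filled circles are genes under 1000 bases and open squares longer genes, and 37 of 45 points lie below 0 with Uqcr11 and Atp5k lowest.

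Complex II oxidises succinate and is the enzyme that the chain shares with the TCA cycle. Its median log2 difference was -0.093, with 3 of 4 subunits below 0. The median was 0.041 after quantile normalization, -0.029 without Ctrl replicate 1, -0.037 without cKO replicate 2, -0.16 without Ctrl replicate 3 and -0.17 without cKO replicate 4. Sdhd, a membrane anchor that binds ubiquinone, stood at 335, 304 and 291 FPKM in Ctrl and at 269, 224, 239.9 and 287 FPKM in cKO. The highest cKO library was just under the lowest Ctrl library, and the log2 difference was -0.29 (SE 0.14, limma adjusted p = 0.596). Sdhb, the iron-sulfur subunit, stood at 347, 305 and 238 FPKM in Ctrl and at 258, 272, 326 and 368 FPKM in cKO. Its groups overlapped in part, with a difference of 0.048 (SE 0.19, limma adjusted p = 0.958) whose sign changed when single libraries were left out. The catalytic Sdha and the anchor Sdhc differed by -0.16 (SE 0.13) and -0.028 (SE 0.16).

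Complex III passes electrons from ubiquinol to cytochrome c, and its median difference was -0.17, with 9 of 10 genes below 0. Under the alternatives the median ranged from -0.30 to -0.044, with 6 to 9 genes below 0, and it was -0.28 without Ctrl replicate 3 and -0.27 without cKO replicate 4. Uqcr11, a small accessory subunit (chr10:80238831-80242655, minus strand, GRCm39), stood at 317, 280.4 and 343 FPKM in Ctrl. In cKO it stood at 215, 144, 95.9 and 172 FPKM, each under every Ctrl library and lowest in replicate 3. Its difference of -1.05 (SE 0.26) did not pass the test (limma adjusted p = 0.473), and rested on 607 to 2686 reads per library. Uqcrq, the ubiquinone-binding accessory subunit (chr11:53318749-53321658, minus strand), stood at 227, 200.3 and 170.1 FPKM in Ctrl and at 146, 122, 111 and 158 FPKM in cKO. The groups did not overlap, and the difference was -0.57 (SE 0.17, limma adjusted p = 0.511). Uqcrh, the hinge protein near cytochrome c1, stood at 505, 514 and 403 FPKM in Ctrl and at 391, 318, 359 and 439 FPKM in cKO, so that the groups overlapped. Its difference was -0.33 (SE 0.17, limma adjusted p = 0.611).

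Other subunits of complex III include its core and catalytic proteins. Uqcrc2, a core protein, stood at 179.8, 163 and 142 FPKM in Ctrl and at 169.7, 178, 192 and 200.1 FPKM in cKO. It was the subunit with the highest difference of all, at 0.20 (SE 0.13, limma adjusted p = 0.690), and 1 Ctrl library lay within the cKO range. The difference was 0.11 without Ctrl replicate 3 and 0.33 after quantile normalization. Uqcrc1, the partner core protein, differed by -0.043 (SE 0.19), the Rieske iron-sulfur protein Uqcrfs1 by -0.067 (SE 0.18) and cytochrome c1, Cyc1, by -0.12 (SE 0.16). Cycs, the mobile carrier cytochrome c, which also takes part in apoptosis, differed by -0.12 (SE 0.20). Its libraries ranged from 57.9 to 103 FPKM, with both ends in cKO. Uqcrb and Uqcr10, further small subunits, differed by -0.24 (SE 0.17) and -0.22 (SE 0.15).

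Complex IV, cytochrome c oxidase, had a median difference of -0.23, and all 14 tested genes were below 0. That median was between -0.33 and -0.12 under the 19 alternatives tried, and 11 of 14 genes were below 0 without Ctrl replicate 1, after quantile normalization and with the length trend removed. Cox5b, a zinc-binding subunit on the matrix side (chr1:36730568-36732469, plus strand), stood at 403, 361 and 438 FPKM in Ctrl. In cKO it stood at 278, 193, 205 and 271 FPKM, and no cKO library reached a Ctrl library. The difference was -0.77 (SE 0.18), the smallest p among subunits, and did not pass the test (limma adjusted p = 0.456). The pseudogene Cox5b-ps, a near copy that may share reads with it, stood at 32.8 to 38.3 FPKM in Ctrl and 13.1 to 29.0 in cKO, so the value of Cox5b is uncertain to that extent.

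Cox6b1, which links the monomers of the oxidase, stood at 632, 639 and 603 FPKM in Ctrl and at 474, 436, 356 and 592 FPKM in cKO. The groups did not overlap although cKO replicate 4 came close, and the difference was -0.45 (SE 0.20, limma adjusted p = 0.554). Its isoform Cox6b2 stood at 7.26, 8.78 and 8.41 FPKM in Ctrl and at 4.93, 6.25, 2.68 and 6.06 FPKM in cKO, on 24 to 91 reads. The groups did not overlap, with a difference of -0.72 (SE 0.26, limma adjusted p = 0.521) that was -0.47 without cKO replicate 3. Cox8a, a small membrane subunit, stood at 853, 812 and 750.02 FPKM in Ctrl and at 622, 497, 677 and 724 FPKM in cKO. All cKO libraries were lower, and the difference was -0.37 (SE 0.19, limma adjusted p = 0.598).

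The other subunits of complex IV overlapped between groups. Cox4i1, a large subunit that binds ATP, differed by -0.27 (SE 0.21) and Cox6a1 by -0.18 (SE 0.23). Cox7c differed by -0.20 (SE 0.18), Cox7b by -0.17 (SE 0.15), Cox5a by -0.16 (SE 0.17), Cox7a2 by -0.10 (SE 0.25) and Cox6c by -0.035 (SE 0.20). Cox7a2l was the highest, at 151, 113 and 97.5 FPKM in Ctrl and 138, 109, 110.5 and 116 FPKM in cKO. All cKO libraries lay within the range of Ctrl, and the difference was -0.0093 (SE 0.17, limma adjusted p = 0.991). The muscle forms Cox6a2 and Cox7a1 differed by -0.31 (SE 0.38) and -0.34 (SE 0.22), with exact permutation p = 0.457 and 0.114.

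**Figure D3:**
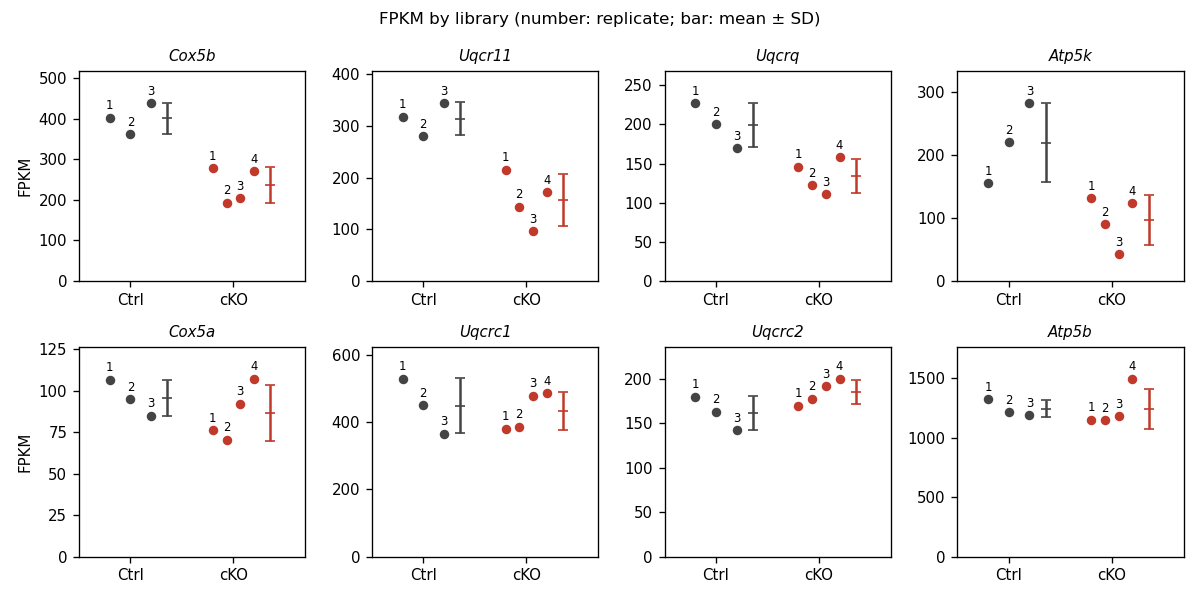
FPKM by library of the 4 subunits Cox5b, Uqcr11, Uqcrq and Atp5k (upper row) and of Cox5a, Uqcrc1, Uqcrc2 and Atp5b (lower row), as points numbered by replicate with mean ± SD per group (n = 3 Ctrl, n = 4 cKO). In the upper row every cKO point lies under every Ctrl point, and in the lower row the groups overlap.

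Complex V, ATP synthase, had a median difference of -0.064, with 11 of 17 genes below 0 (6 to 16 under the alternatives). The sign of that median changed with the scaling, to 0.024 after rescaling to a common sum, 0.055 after quantile normalization, 0.035 after removal of the length trend and 0.045 after removal of the GC trend. It also changed, to 0.036, without Ctrl replicate 1, and the median was -0.012 without cKO replicate 2, -0.17 without Ctrl replicate 3 and -0.14 without cKO replicate 4. Atp5k, which encodes subunit e of the membrane part (chr5:108581112-108582265, minus strand), stood at 156, 221 and 282 FPKM in Ctrl. In cKO it stood at 131, 90.8, 43.3 and 123 FPKM, and the groups did not overlap. Its difference of -1.25 (SE 0.39) was the largest of the subunits in size and did not pass the test (limma adjusted p = 0.511). It rested on 201 to 1461 reads in a gene of 320 bases, the one among the printed promoters with the NRF1 palindrome. Both groups were widely spread, since the highest library was 282 FPKM against 156 in Ctrl and 131 against 43.3 in cKO.

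Atp5e, the epsilon subunit of the central stalk, stood at 519.9, 517 and 385 FPKM in Ctrl and at 389, 286, 266 and 419 FPKM in cKO. Ctrl replicate 3 lay among the cKO libraries, and the difference was -0.49 (SE 0.22, limma adjusted p = 0.557). Atp5d, the delta subunit of the same stalk, differed by -0.37 (SE 0.19), and Atp5c1, the gamma subunit that forms its shaft, by 0.068 (SE 0.16). Atp5g3 stood at 606, 564 and 456 FPKM in Ctrl and at 422, 349, 326 and 469 FPKM in cKO. The groups overlapped in 1 library of each, with a difference of -0.47 (SE 0.19, limma adjusted p = 0.542). Atp5g1 stood at 244, 217 and 201 FPKM in Ctrl and at 169.9, 155, 192 and 196 FPKM in cKO. Its groups did not overlap, with a difference of -0.31 (SE 0.14, limma adjusted p = 0.573), and Atp5g2 differed by -0.26 (SE 0.16).

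Atp5b and Atp5a1 form the catalytic head of ATP synthase. Atp5b stood at 1321, 1215 and 1190.3 FPKM in Ctrl and at 1152, 1148, 1179 and 1496 FPKM in cKO. The groups overlapped, and the difference was -0.0062 (SE 0.19, limma adjusted p = 0.995). Atp5a1, the alpha subunit, differed by -0.064 (SE 0.18). In the peripheral stalk, which holds the head in place, Atp5pb (subunit b) differed by 0.059 (SE 0.17), Atp5o (OSCP) by 0.041 (SE 0.22), Atp5h (subunit d) by -0.017 (SE 0.19) and Atp5j (F6) by -0.11 (SE 0.12). Of the small membrane subunits, Atp5j2 (f) differed by 0.043 (SE 0.23), Atp5l (g) by -0.12 (SE 0.17) and Atp5md (DAPIT) by 0.045 (SE 0.19). Atp5mpl, a further small membrane subunit, stood at 135, 136 and 141 FPKM in Ctrl and at 138, 119, 165 and 197 FPKM in cKO. It was the highest of the complex at 0.15 (SE 0.18, limma adjusted p = 0.840), with overlap between the groups. That difference was 0.023 without cKO replicate 4 and 0.27 without cKO replicate 2.

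Some of these genes share sequence with others, and no source used here states whether counting used strand. Genes that name the same protein were found in the table for 14 of the 49 subunits. Their summed level reached 87.2 FPKM for Atp5h, 39.8 for Cox5b, 29.99 for Cycs, 25.9 for Cox7a2l and 24.8 for Uqcrb in the highest library. It was 15.3 FPKM at most for Uqcr11. On the opposite strand, Atp5d overlaps Cbarp, Uqcrc2 overlaps Pdzd9, Atp5j overlaps Gabpa, Atp5md overlaps Taf5 and Atp5a1 overlaps Haus1. Likewise Uqcrh overlaps Gm12854, Atp5l overlaps Gm30934 and Cox7a2 overlaps Gm51685. Among the genes with few reads, Cox6a2 overlaps Itgad, Cox7a1 overlaps LOC118567480, and Cox4i2 overlaps Bcl2l1 and Gm32057. Reads of these pairs cannot be told apart without strand. On the same strand, Sdhc overlaps Gm46172, Atp5b overlaps Mir677 and Snord59a, Atp5c1 overlaps Gm23608 and Cox7c overlaps Gm22574. Strand would not separate the reads of these. Of the 4 genes of the upper row in the plot of FPKM by library, none overlaps another gene.

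Ratios between subunits of the same complex within a library do not depend on the scaling of that library. They do keep any trend of a library with gene length. The pairs were chosen after the values were seen and carry no test, and the share over all gene pairs was not taken. The numerators Uqcr11, Cox5b and Atp5k have 436, 569 and 320 bases, and Uqcrc1, Cox5a and Atp5b have 1656, 3153 and 1879. The part of length in these ratios was not tested. Uqcr11 over Uqcrc1 was 0.6004, 0.624 and 0.941 in Ctrl and 0.567, 0.372, 0.201 and 0.354 in cKO. Cox5b over Cox5a was 3.77, 3.81 and 5.15 in Ctrl and 3.65, 2.74, 2.22 and 2.52 in cKO. Atp5k over Atp5b was 0.118, 0.182 and 0.237 in Ctrl and 0.114, 0.0791, 0.0367 and 0.0824 in cKO. In these pairs, and in Uqcrq over Uqcrc1, every cKO library was below every Ctrl library, while cKO replicate 1 came close to Ctrl in the 3 pairs printed. Uqcrc2 over Uqcrc1 had every cKO library above every Ctrl library, at 0.340 to 0.389 in Ctrl and 0.401 to 0.460 in cKO. Atp5a1 over Atp5b, the catalytic pair, overlapped at 0.580 to 0.695 in Ctrl and 0.596 to 0.659 in cKO, and so did Atp5e over Atp5b and Cox6b1 over Cox4i1.

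The subunits were also compared by their length in the table. The median difference was -0.26 over the 25 tested subunits under 1000 bases and -0.086 over the 20 longer ones. Other protein-coding genes under 1000 bases, 617 in all, had a median of -0.23, and 77.6% of them were below 0 against 84% of the short subunits. Among the 158 of these with a mean of at least 100 FPKM, the median was -0.26 and 80.4% were below 0. Groups did not overlap, with cKO lower, in 28% of short subunits, in 13.1% of other short protein-coding genes and in 15.2% of the abundant ones. Longer protein-coding genes outside the subunits had a median of 0.0026, with 49.4% below 0, whereas 80% of the longer subunits were below 0. In the bins nearest to the longer subunits the medians of other protein-coding genes were -0.14 between 1000 and 1500 bases and -0.12 between 1500 and 2000 bases. The longer subunits in these bins had medians of -0.047 (8 genes) and -0.025 (6 genes). In the next 2 bins, which hold the 6 longest subunits, the medians of subunits were lower than those of other protein-coding genes, at -0.16 against -0.048 and -0.12 against 0.0066, with 3 of 3 below 0 in each. The median of the longer subunits changed sign after rescaling to a common sum (0.0015), after quantile normalization (0.037) and without Ctrl replicate 1 (0.0034). That of the short ones stayed below 0 under all 19 alternatives, from -0.35 to -0.11. With the length trend taken out of every library, 28 of 45 subunits (62.2%) and 49.5% of all genes were below 0.

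**Figure D4:**
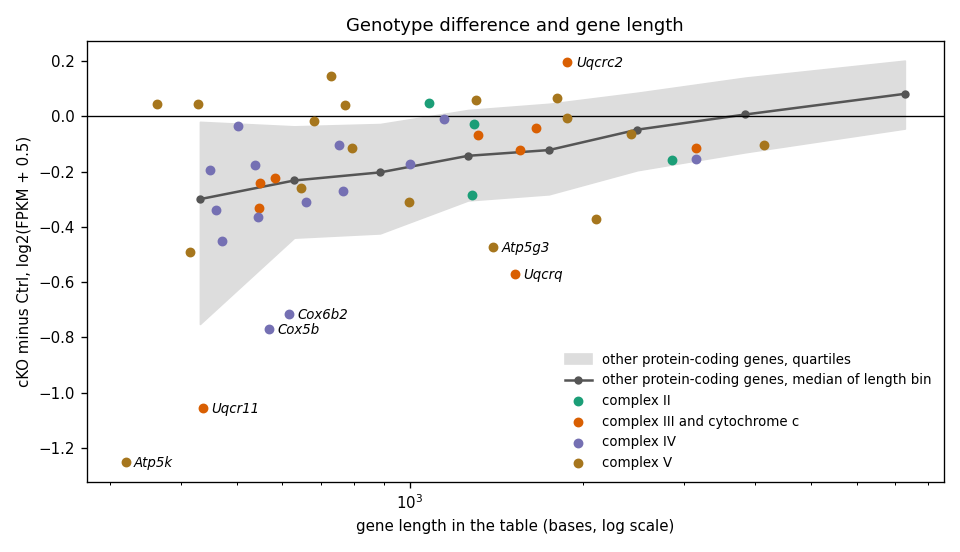
Log2 difference, cKO minus Ctrl, of each tested subunit against its length in the table (log axis), coloured by complex. The line joins the medians of other protein-coding genes per length bin and the band spans their quartiles, and short subunits spread around a line that is itself below 0 at short lengths.

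The libraries within each genotype differed in the subunits as a whole. Relative to the Ctrl mean, the median subunit stood at 0.11, 0.038 and -0.16 log2 units in Ctrl and at -0.26, -0.35, -0.14 and 0.076 in cKO, so that the groups overlapped. Ctrl replicate 1 was the highest library for 18 of the 45 tested subunits, cKO replicate 4 for 16, Ctrl replicate 3 for 6, Ctrl replicate 2 for 4 and cKO replicate 3 for 1. The lowest library was cKO replicate 2 for 21, cKO replicate 3 for 10, Ctrl replicate 3 for 10 and cKO replicate 1 for 4. The library size behind the deposited FPKM was 0.891 times the recovered reads in cKO replicate 4, the lowest of the 7 libraries. In cKO replicate 2 it was 1.10 times, the highest, and the part of this scaling was not tested. Reads assigned to the 49 genes made up 1.87%, 1.72% and 1.57% of the reads in Ctrl and 1.60%, 1.52%, 1.51% and 1.66% in cKO. The means were 1.72% ± 0.150 (SD, n = 3) and 1.57% ± 0.0683 (SD, n = 4), which differed with p = 0.171 in an exact 2-sided permutation test. The profile over the 7 libraries of Cox5a (Pearson r = 0.968) and Cox6a1 (r = 0.965) was closest to that of the median subunit. Uqcr11 (r = 0.373), Atp5k (r = 0.283), Uqcrc2 (r = 0.249) and Atp5g2 (r = 0.180) were among the least alike. These correlations describe 7 libraries that share their scaling and include the subunit itself in the median.

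**Figure D5:**
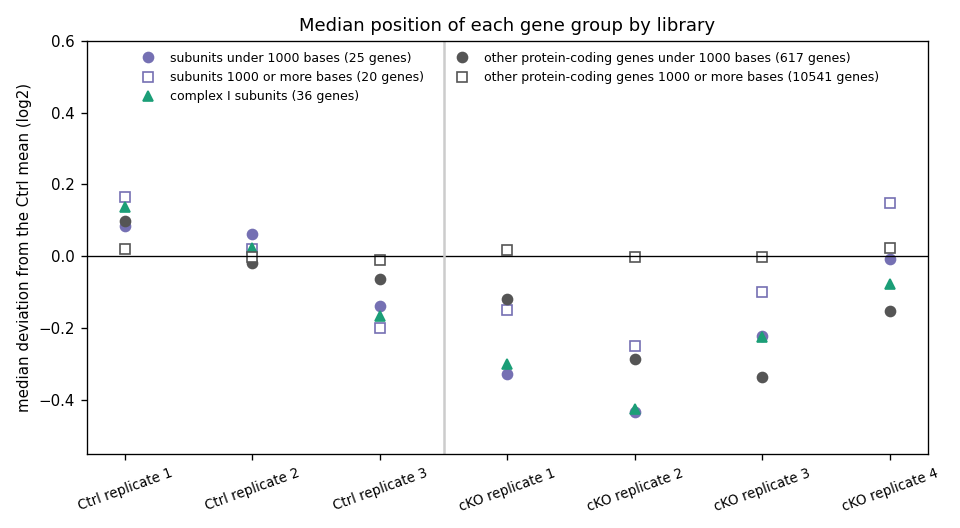
Median log2 deviation from the Ctrl mean in each of the 7 libraries for short and long subunits, complex I subunits and other protein-coding genes of the same length classes. Subunits of both length classes are highest in Ctrl replicate 1, within cKO they are highest in replicate 4, and other short genes lie below 0 in all 4 cKO libraries.

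Other genes of the respiratory system were described by lists. All 36 complex I subunits listed were tested, 32 were below 0 with a median of -0.26, and 13 were lower at an unadjusted p under 0.05 (4.73% of all genes) with 0 called by limma. The median was -0.13 without Ctrl replicate 1 (25 of 36 below 0), -0.11 after removal of the length trend (24 of 36) and -0.14 after quantile normalization (27 of 36). Ndufs6 and Ndufa2 had the smallest p, with differences of -0.80 (SE 0.14, limma adjusted p = 0.367) and -0.97 (SE 0.20, adjusted p = 0.409). Of 38 assembly factors of complexes II to V, 35 were tested and 21 were below 0, with a median of -0.063 that became 0.023 after rescaling to a common sum and -0.020 without Ctrl replicate 2 or without cKO replicate 3. None was called by limma, and 4 were lower and 1 higher at an unadjusted p under 0.05, against 4.73% and 4.24% of all genes. Uqcc3, an assembly factor of complex III, stood at 18.1 ± 1.65 and 11.02 ± 1.89 FPKM, a difference of -0.70 (SE 0.14, limma adjusted p = 0.409). Pet100, an assembly factor of complex IV, stood at 9.78 ± 2.30 and 5.30 ± 1.28 FPKM (SD, n = 3 and 4), a difference of -0.83 (SE 0.20, limma adjusted p = 0.473).

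The 6 mitochondrially encoded partners of complexes III to V lay on the other side of 0. All 6 were above 0, with a median of 0.48 and 0 called by limma or at an unadjusted p under 0.05. With array weights 2 of the 6 were below 0 and the median was 0.081, and leaving out 1 library gave medians from 0.25 (without cKO replicate 3) to 0.80 (without Ctrl replicate 2). The 6 differed widely in level, since CYTB stood at 5062 to 12262 FPKM and ATP8 at 1.01 to 6.75 FPKM over libraries. Why was not tested. COX1, the catalytic subunit of complex IV, stood at 11812, 15104 and 11797 FPKM in Ctrl and at 10205, 14237, 20805 and 25463 FPKM in cKO. Its high values were those of cKO replicates 3 and 4, while replicates 1 and 2 lay at the level of Ctrl, and the difference was 0.38 (SE 0.46, limma adjusted p = 0.840). COX3 had the smallest p of the 6, with 809 and 512 FPKM in cKO replicates 3 and 4 and at most 133 FPKM in any other library (difference 1.09, SE 0.80, limma adjusted p = 0.708). ATP6, a membrane subunit of ATP synthase, differed by 0.75 (SE 0.68, limma adjusted p = 0.760). The same pair of libraries had the highest share of mitochondrial reads, 7.39% and 7.51%, against 3.71% to 5.32% in the others, and its part in these values was not tested.

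Among 14 regulators of mitochondrial gene expression, 12 were above 0 with a median of 0.096 and 0 called by limma. At an unadjusted p under 0.05, 1 was lower and 1 higher, against 4.73% and 4.24% of all genes. The lower one was Esrra, the nuclear receptor ERR alpha, a regulator of oxidative genes, at 147 ± 6.52 FPKM in Ctrl and 102 ± 21.1 FPKM in cKO (SD, n = 3 and 4). Its difference was -0.54 (SE 0.17, limma adjusted p = 0.511), and no cKO library reached the lowest Ctrl library of 141 FPKM. The higher one was Tfb2m, a mitochondrial transcription factor, at 4.47 ± 0.739 and 6.12 ± 1.25 FPKM, a difference of 0.41 (SE 0.17, limma adjusted p = 0.554). The 14 genes of the TCA cycle, whose enzymes feed the chain, had 6 members below 0, a median of 0.028 and 0 called by limma, 0 of them at an unadjusted p under 0.05. The smallest p were those of Idh3a, a subunit of isocitrate dehydrogenase, at 0.19 (SE 0.14), and the fumarase Fh1, at 0.17 (SE 0.13). After rescaling to a common sum 1 of the 14 was below 0 (median 0.11), and after quantile normalization 0 of 14 (median 0.11). The TCA median turned to -0.076 without Ctrl replicate 3, to -0.025 without cKO replicate 4 and to -0.053 with array weights.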

How the data were processed

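The RNA was measured in 7 libraries, 3 Ctrl and 4 cKO, grouped by their titles. Replicate numbers are those of the titles, and most deposited columns carry other numbers. No Ctrl column shares its number with a cKO column. The authors deposited 1 table of FPKM values with gene lengths and biotypes. HISAT2, an aligner, is named in the submitters' processing notes. Not given in the sources used here: its version, how reads were counted, whether strand was used and which annotation served. The chromosome accessions in the table belong to GRCm39.

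In 100% of values, FPKM times gene length was a whole number of reads within 0.01 of a read, so reads were recovered. They numbered 14659708 to 19659622 per library. The library sizes behind the deposited FPKM were 0.891 (cKO replicate 4) to 1.10 (cKO replicate 2) times these totals. A gene of 1000 bases with 3 reads stood at 0.155 to 0.216 FPKM.

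A mean of 0.5 FPKM or more was required, which left 13057 genes for a test on log2(FPKM + 0.5) with limma 3.58.1 in R 4.3.3 (lmFit, eBayes with a trend, 2-sided, Benjamini-Hochberg over all genes, threshold 0.05, no covariate). Fold changes on this scale understate those of low genes. The fit was tested on simulated data. Single values were compared by an exact 2-sided permutation test over 35 assignments of the libraries, with the smaller tail doubled.

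The members and lists were chosen with earlier results of these data known. Given in full are the 12 tested subunits with the smallest p and, per complex, the one with the highest difference. Per list, the 2 genes with the smallest p are named. Among these lists are genes of the pathway and of cell types, 151 in all, which all matched the table. Genes named outside this rule, such as the pairs in ratios, COX1 and pseudogenes, were chosen after their values were seen. Copies of a subunit are rows whose description in the table names the same protein record.

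Alternatives were a pseudocount of 0.1 or of 1, the required mean dropped or set to 1 FPKM, quantile normalization, rescaling to a common sum (TPM), limma voom on the recovered reads (10 or more in 3 libraries), removal of the trend with length, array weights, protein-coding genes only, the replicate number as a block, and leaving out each library. Removal of the GC trend, and the scalings used for the count of groups without overlap, were added after seeing the data. Same-numbered Ctrl and cKO libraries did not deviate together, so the numbers were not used as pairs.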

Additional observations from a re-analysis of the deposited data

Results flagged for a closer look

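In groups of 4 libraries, a single library can stand apart from the rest. Of the 45 tested subunits, 4 had a cKO library whose gap to its neighbour as a share of the group's range exceeded Dixon's 95% limit, which chance passes in about 1 in 20 groups. In all 4 it was cKO replicate 4, and it was the highest. The groups share the same libraries and are not independent, and the same count over all genes was not taken. Atp5b stood at 1496 FPKM there (gap of 0.911 of the range), Atp5o at 735 FPKM (0.835), Cyc1 at 331 FPKM (0.873) and Atp5l at 241 FPKM (0.917). The same library was the highest of all 7 for 16 of the 45 subunits and had the highest share of mitochondrial reads, 7.51%. Its deposited FPKM summed to 522836, the highest of the 7 libraries. The library size behind these FPKM was 0.891 times its recovered reads, the lowest of the 7. The parts of that share and of this scaling in these values were not tested.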

How the results depend on the processing

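No subunit was called by limma under any of the 19 alternatives, and the smallest adjusted p of a subunit over them was 0.253, without cKO replicate 1. Between 26 (quantile normalization) and 43 subunits (array weights, the replicate block, and without cKO replicate 4) were below 0. The share of all genes below 0 was 46.5% after quantile normalization and 51.0% with array weights. It was 51.3% with the block and without cKO replicate 4. The median of all subunits ranged from -0.26 to -0.031, and those of complexes III and IV also stayed below 0. The count of genes called over the whole table was 4. It was 1 with a pseudocount of 0.1, without a filter, at a mean of at least 1 FPKM and after removal of the length trend, and 2 with protein-coding genes only and after removal of the GC trend. Leaving out 1 library at a time gave 1 to 7 called genes, the 7 without cKO replicate 1. With array weights 15 subunits were lower at an unadjusted p under 0.05, against 7.39% of all genes.

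With the replicate number as a replicate block, 0 genes were called by limma, 4.98% were lower at an unadjusted p under 0.05, and 9 subunits were among them. cKO replicate 4 has no partner and adds nothing to that fit. Same-numbered libraries correlated at 0.115, -0.087 and -0.13 in their deviations from the group means. Of the Ctrl libraries, Ctrl replicate 1 correlated best with its own number, replicate 2 with cKO replicate 3 and replicate 3 with cKO replicate 2.

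The difference of Sdhb was -0.084 with array weights and -0.045 with the block, and -0.10 to 0.17 with 1 library left out. That of Cox7a2l was 0.079 after rescaling to a common sum, 0.098 after quantile normalization, 0.0051 with voom, 0.12 after removal of the length trend and 0.0080 after removal of the GC trend, and -0.15 to 0.16 with 1 library left out. The cause was not tested. With 3 and 4 libraries the exact test used here, which doubles the smaller tail, cannot reach 0.05. Cox4i2, Cox6a2 and Cox7a1 had at most 15 reads in a library.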

Other observations

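Of the 6 pseudogenes that share the naming of subunits, Cox5b-ps was the most abundant, at 37.5, 32.8 and 38.3 FPKM in Ctrl and 29.0, 13.1, 14.1 and 25.2 FPKM in cKO. Cox7c-ps1 stood at 1.04 to 4.11 FPKM, Cox6c2 at 0.143 to 1.37 FPKM and Atp5l-ps1 at no more than 0.439 FPKM. No read was assigned to Atp5l-ps2 and Uqcrh-ps1. The values of Cox5b-ps followed the order of Cox5b in that every cKO library was below every Ctrl library, and reads shared between the gene and its copy cannot be told apart here.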
